A study of Mus musculus with 51 samples.

Results

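The stretch of mouse chromosome 15 that runs from Trps1 to Phf20l1 and holds the oncogene Myc was read in 51 Affymetrix whole-genome mouse arrays. Its 36 members were named by position, and the stretch itself was singled out because neighbouring genes lay low together in some SV40 MEF pools, so its values in those pools are a description and carry no test. Genes were read only from probe sets annotated with a single gene symbol. Of the 36 members, out of 18193 genes with such a probe set, 34 had one. Samd12 and Enpp2 (autotaxin, a secreted lysophospholipase) had none of that kind and are not described further.

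The series compared mouse cells that lack or carry extra HMGN proteins, small nuclear proteins that bind nucleosomes. SV40-transformed mouse embryonic fibroblasts (MEFs), a line obtained from ATCC, gave 24 arrays in 8 groups of 3: an empty vector, and constructs labelled HMGN1 OE, HMGN2 OE, HMGN3a OE, HMGN5 OE, HMGN5SE OE, HMGN1_N2swap and HMGN1_N3swap. OE stands for overexpression, and the labels explain neither SE nor the swaps. The insulin-producing tumour line MIN6 was used for 9 arrays (empty vector, HMGN1 OE, HMGN3a OE). Both lines were infected with retrovirus and selected with puromycin, and whole pools rather than clones were collected, with a doubled amount of protein as the stated aim. Primary MEFs of strain C57BL/6 gave 18 arrays, with HMGN1, HMGN3 or HMGN5 knock out and a WT group for each. Whether the 3 arrays of a group are separate cultures is not stated, so errors and p-values measure the spread between these arrays. In such bulk RNA, fewer cells expressing a gene and less RNA per cell cannot be told apart.

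Levels are log2 of the deposited intensity and were compared within a cell type only, since array medians of intensity ran from 18.6 to 19.6 for SV40 MEFs, from 5.46 to 5.93 for primary MEFs and from 55.4 to 57.5 for MIN6 cells. Fibroblast markers passed the filter for dim probe sets in number 11 of 12 in SV40 MEFs (Lum did not) and 12 of 12 in primary MEFs, against 4 of 12 in MIN6 cells. Beta cell markers with a probe set passed in number 10 of 10 in MIN6 cells and 3 of 10 in either kind of MEF. The mRNA of the added protein was not higher in the SV40 pools: the Hmgn1 difference from vector was -0.01 ± 0.07 with HMGN1 OE, Hmgn3 was -0.23 ± 0.08 with HMGN3a OE, and Hmgn5 was -0.93 ± 0.08 in the pool labelled HMGN5 OE and -0.05 ± 0.08 with HMGN5SE OE (± SE, n = 3). A probe set outside the cloned part would not see a construct, so these values check the pools only in part, and no Hmgn2 value was read. In primary MEFs the Hmgn1 and Hmgn3 probe sets were lower in their knock outs (-0.67 ± 0.05 and -1.30 ± 0.08), while Hmgn5 was higher (0.72 ± 0.12) in the arrays labelled HMGN5 knock out.

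Myc encodes a transcription factor that pairs with Max and drives genes of growth, ribosome production and the cell cycle. The corresponding human region is widely known for being gained in tumours, and its genes serve unrelated functions: cohesin (Rad21), translation initiation (Eif3h), Mediator (Med30), TFIID (Taf2) and hyaluronan synthesis (Has2) all have a subunit or enzyme there. Neighbours on a chromosome need not share regulation, which is why values are given below both along the gene order and by what each gene does.

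In the pool labelled HMGN5 OE most of the stretch lay close to a log2 unit below empty vector. The median difference over the 31 members that passed the filter in SV40 MEFs was -0.97, that is 51.1% of the vector level, against -0.01 over all 13469 genes tested. Tnfrsf11b (osteoprotegerin), Colec10 (a collectin) and Mal2 (a transcytosis protein) did not pass, with highest group means of 3.59, 2.33 and 1.79 against a filter level of log2 3.63. The middle of the members' distribution ran from -1.14 to -0.55 (quartiles), and 23 of the 31 lay below -0.5, compared with 6.93% of all genes. In 27 members the 3 HMGN5 OE arrays were all below the 3 vector arrays and in 1 (Has2) all above. Over all genes 28.9% were lower and 27.4% higher by that rule, and since the stretch was chosen on this contrast nothing is read from the excess. For 18 of the 31 members the HMGN5 OE arrays were the 3 lowest of all 24 SV40 arrays, as they were for 8.19% of genes.

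**Figure D1:**
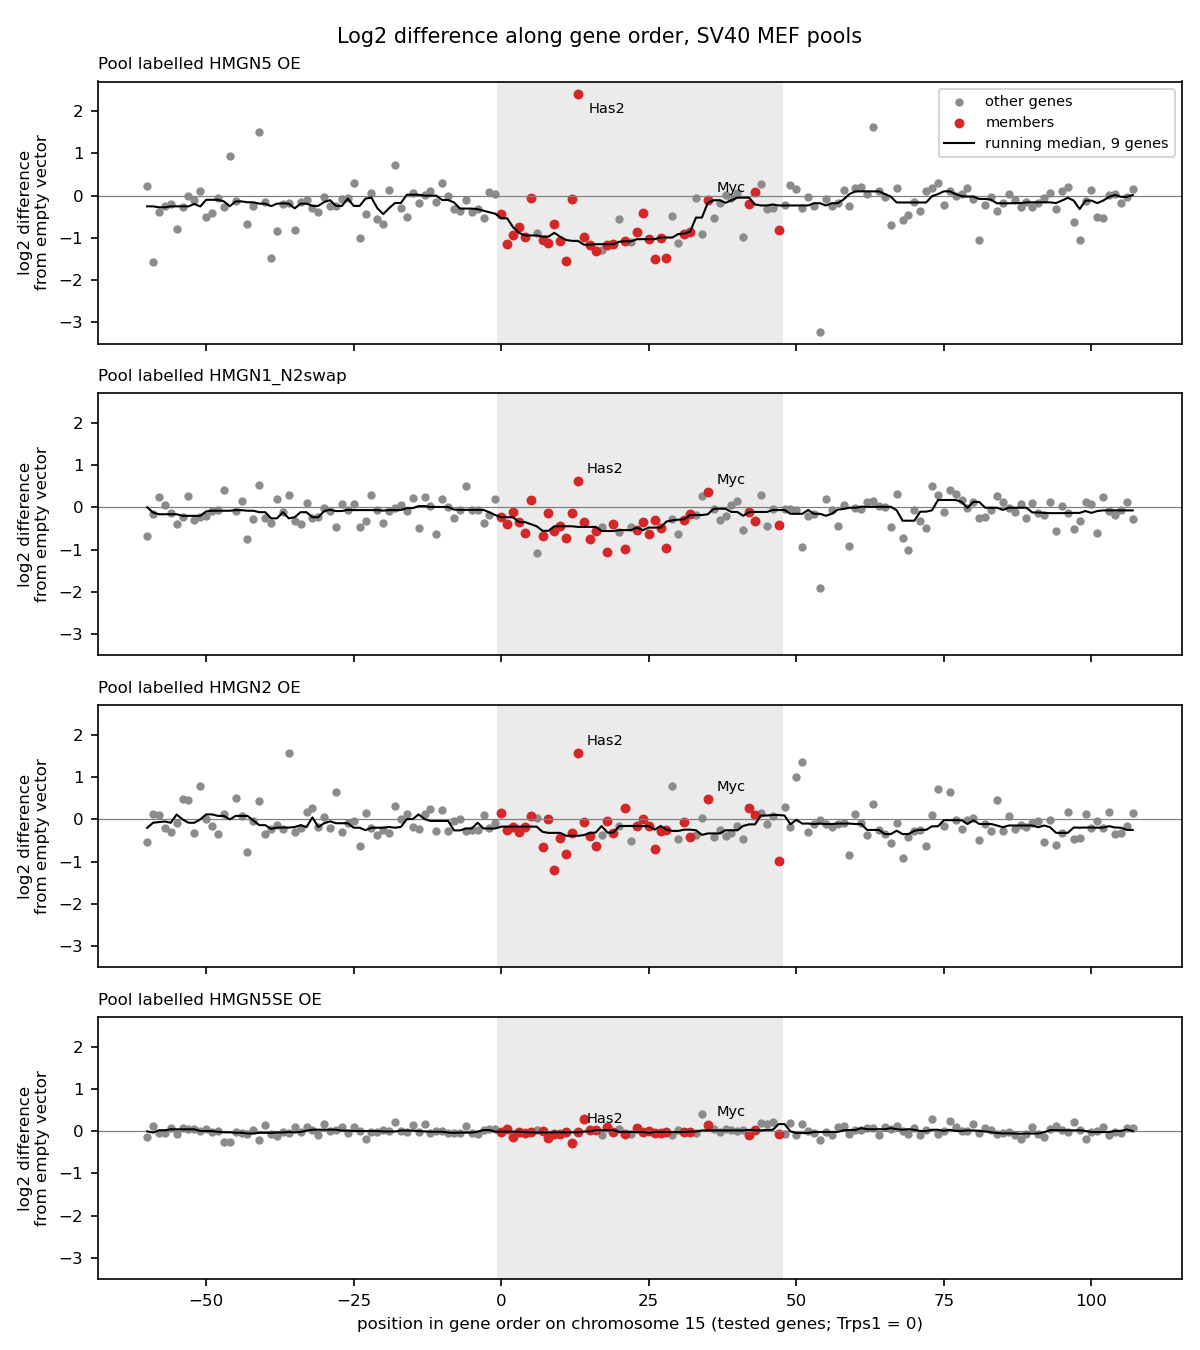
Log2 difference from empty vector (vertical axis) for tested genes in their order on chromosome 15 (horizontal axis, Trps1 at 0) in 4 SV40 MEF pools; red points are members, grey points other genes, the line is a running median of 9 genes and the shaded band marks the stretch. The running median dips to about -1 inside the band in the HMGN5 OE panel, dips less in the HMGN1_N2swap and HMGN2 OE panels and stays near 0 in the HMGN5SE OE panel, with Has2 far above its neighbours in the HMGN5 OE and HMGN2 OE panels.

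The values were less low outside the named stretch, though genes before it were low too. At the start Trps1 was -0.43 ± 0.09 and the next gene, Eif3h, -1.15 ± 0.05. The 5 tested genes before Trps1 were Ebag9 (-0.54), Eny2 (-0.31), Nudcd1 (-0.39), 4930548G14Rik (0.08) and Csmd3 (0.04). Of the 20 genes on that side, with a median of -0.13, 10 lay below vector without overlap, where 28.9% of all genes did. At the other end Phf20l1 was -0.80 ± 0.07, whereas the 5 genes after it, Tg, Sla, Ccn4, Ndrg1 and 1700012I11Rik, ranged from -0.30 to 0.24, and 20 genes on that side had a median of -0.02. Over all 102 tested genes of chromosome 15 before the stretch the median was -0.21, and 20.6% lay below -0.5. The 401 genes after it had a median of 0.07, with 4.49% below -0.5, and the medians of the 19 other chromosomes with at least 50 tested genes ran from -0.13 to 0.14. The very low point past the stretch in the plot along the gene order is Khdrbs3, an RNA-binding protein, named here after its values were seen: its HMGN5 OE mean of 3.01 lay under the filter level, so it was at least 2.60 lower than in vector (6.23), and the swap pools had -1.91 and -2.07.

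Within the stretch, the bright genes gave the clearest run. Genes were split by level after the values were seen. Of those between Trps1 and Phf20l1, 27 had a mean over all 24 SV40 arrays at least 4 log2 units above the filter level. Their median was -1.03, and 22 lay below -0.5, as did 6.93% of all genes of any level. The 5 that did not were Ext1, Myc, Asap1, Efr3a and Sqle, a squalene epoxidase of cholesterol synthesis that is not a member. Between Eif3h and Cyrib, 21 of 24 bright genes lay below -0.5, with Ext1, Sqle and Myc as the exceptions. This narrower window leaves out Asap1, Efr3a and Phf20l1. Its share depends on where the ends were set, so nothing is read from it. Among members alone, the 22 bright ones had a median of -1.01 and the 9 dimmer ones -0.68. The dimmer ones ranged from -1.48 to 2.41. A dim probe set carries more background, which can compress its differences, and its part here was not tested. Sntb1 (-0.09 ± 0.15), a syntrophin of the dystrophin complex, lay close to the filter level in every group.

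Genes in the stretch that are not named as members were low as well. Of 17 such genes tested in SV40 MEFs, 10 had HMGN5 OE arrays all below vector and 0 all above, with a median of -0.48. Over all genes 28.9% were lower and 27.4% higher by that rule. 9130401M01Rik (-1.30), Washc5 (-1.12, a subunit of the WASH complex on endosomes), Fam91a1 (-1.09), Cyrib (-0.99, a Rac1 interactor), Lratd2 (-0.90) and Ccn3 (-0.88, a secreted matrix-cell protein) were the lowest. Wdyhv1 (-0.56), the long non-coding RNA Pvt1 next to Myc (-0.52), Sqle (-0.48) and Tmem71 (-0.30) were less low, and Kcnq3 (-0.32) and Macroh2a3 (-0.17) overlapped vector. The remaining 5 were 4933412E24Rik, Gm20740, Gsdmcl2, Gsdmcl-ps and Oc90, from -0.06 to 0.27.

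The arrays of a pool lay close together. The score of an array was taken as the median over the tested members of its log2 level minus the mean of the vector arrays. The 3 HMGN5 OE arrays scored -0.98 to -0.94, the HMGN1_N2swap arrays -0.44 to -0.36, the HMGN1_N3swap arrays -0.34 to -0.31 and the HMGN2 OE arrays -0.22 to -0.19. The vector arrays scored from -0.003 to 0.018. The HMGN1 OE arrays scored 0.08 to 0.17, the HMGN3a OE arrays 0.005 to 0.083 and the HMGN5SE OE arrays from -0.01 to 0.01, so the first 4 pools were below every vector array, HMGN1 OE above, and HMGN3a OE and HMGN5SE OE overlapped it. Arrays of primary MEFs scored from -0.11 to 0.06 and those of MIN6 cells from -0.06 to 0.03.

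**Figure D2:**
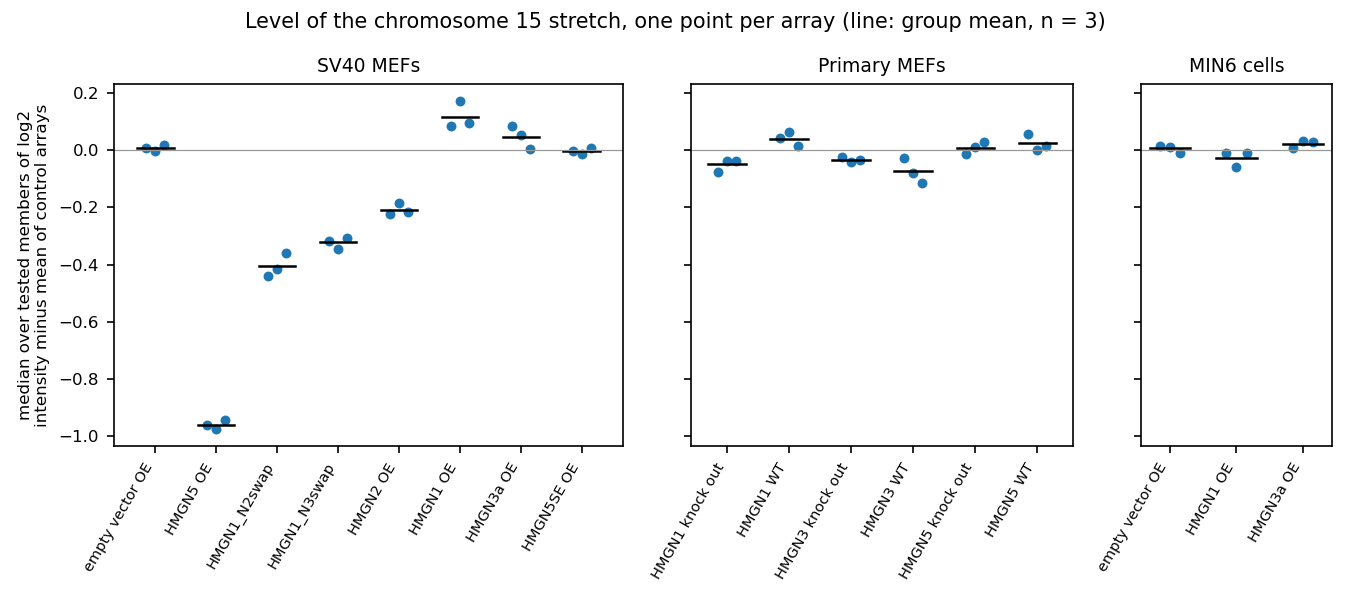
Median over tested members of log2 intensity minus the mean of the control arrays (vertical axis; controls are the vector arrays, or all 9 WT arrays in primary MEFs), 1 point per array and a line at each group mean, n = 3, for SV40 MEFs, primary MEFs and MIN6 cells. HMGN5 OE lies near -0.96, the swap pools between -0.44 and -0.31, HMGN2 OE near -0.21, and all primary and MIN6 arrays between -0.12 and 0.07.

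Other measures moved with some of the pools. The summed level of the 11 fibroblast markers was 14.72 to 14.75 (log2) in HMGN5 OE and 14.43 to 14.54 in HMGN2 OE, against 13.82 to 13.87 with vector. The log2 difference between the 3' and 5' Actb control probe sets, a sign of RNA integrity, was 0.39 to 0.79 in HMGN1_N2swap, 0.47 to 0.77 in HMGN1_N3swap and 0.01 to 0.20 in HMGN2 OE, and 0.18 to 0.25 in HMGN5 OE against 0.23 to 0.29 with vector. Their part in the levels of the stretch was not tested.

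In HMGN5 OE all 6 of 6 genes of chromosome structure and the cell cycle lay below vector without overlap, with a median of -1.14. Over all genes 28.9% were lower by that rule. Since the stretch was chosen on this contrast, nothing is read from the counts by role here and below. Rad21, the kleisin that closes the cohesin ring, read 10.79, 10.81 and 10.99 in the HMGN5 OE arrays and 11.50, 11.53 and 11.80 with vector, a difference of -0.75 ± 0.09. Mtbp, an Mdm2-binding protein that takes part in firing replication origins, read 7.43, 7.48 and 7.52 against 9.09, 9.05 and 8.93. Its difference of -1.54 ± 0.06 was the lowest of all members, and its levels did not come near the vector arrays. Dscc1, a subunit of a clamp loader that promotes cohesion, was -1.13 ± 0.06. Tbc1d31, a protein of centriolar satellites, was -1.30 ± 0.06, Atad2, a bromodomain ATPase, -1.15 ± 0.06 and Nsmce2, the SUMO ligase of the SMC5/6 complex, -0.91 ± 0.07.

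In the swap pools and in HMGN2 OE the same 6 genes lay between vector and HMGN5 OE or at the vector level. Mtbp was -0.72 ± 0.06 with HMGN1_N2swap, -0.70 ± 0.06 with HMGN1_N3swap and -0.82 ± 0.06 with HMGN2 OE. Dscc1 overlapped vector in all 3 of these pools (-0.14, -0.06 and 0.01, each ± 0.06). Rad21 was -0.34, -0.21 and -0.30, each ± 0.09. In HMGN1 OE none of the 6 was below vector and 4 were above it without overlap, where 21.6% and 27.8% of all genes were. The 4 were Nsmce2 (0.51 ± 0.07), Dscc1 (0.44 ± 0.06), Tbc1d31 (0.22 ± 0.06) and Atad2 (0.09 ± 0.06).

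Members that act in transcription were below vector in 7 of 7 cases in HMGN5 OE, where 28.9% of all genes were. Their median was -0.97, with Myc nearest to vector. Taf2, a TFIID subunit, was -1.05 ± 0.07, and Med30, a subunit of the Mediator head, -0.97 ± 0.05. The zinc finger and homeobox proteins Zhx1 and Zhx2 were -1.18 ± 0.07 and -0.98 ± 0.10. Trps1 is a GATA-type repressor and Phf20l1 a reader of methylated lysines.

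Zhx1 separated the pools in another way than most members. It read 7.84, 7.97 and 7.75 in HMGN5 OE, 7.94 to 8.02 with HMGN1_N2swap and 8.09, 7.98 and 7.82 with HMGN1_N3swap, against 8.98, 9.04 and 9.08 with vector. The swap pools thus reached the level of HMGN5 OE (-1.05 and -1.07, each ± 0.07), while HMGN2 OE overlapped vector (-0.05 ± 0.07). HMGN1 OE, at 9.78, 9.61 and 9.67, was above all vector arrays (0.65 ± 0.07).

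Myc itself did not follow its neighbours. It read 8.88, 8.90 and 8.89 in HMGN5 OE and 9.04, 8.99 and 8.96 with vector, a difference of -0.11 ± 0.09 in arrays that did not overlap but whose gap is about the size of its error. With HMGN1_N2swap it read 9.17, 9.32 and 9.60, with HMGN1_N3swap 9.55, 9.26 and 9.36, and with HMGN2 OE 9.45, 9.46 and 9.51. These 3 pools, in which most members lay below vector but which included the mixed HMGN2 OE pool, thus had Myc above every vector array (0.36, 0.39 and 0.47, each ± 0.09). In HMGN1 OE, where the stretch was slightly high, Myc read 8.64, 8.78 and 8.60 and was below vector (-0.32 ± 0.09). With HMGN3a OE and HMGN5SE OE it was 0.12 and 0.15, each ± 0.09. The array carried 1 probe set for Myc that passed, so no other probe set checks these values.

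**Figure D3:**
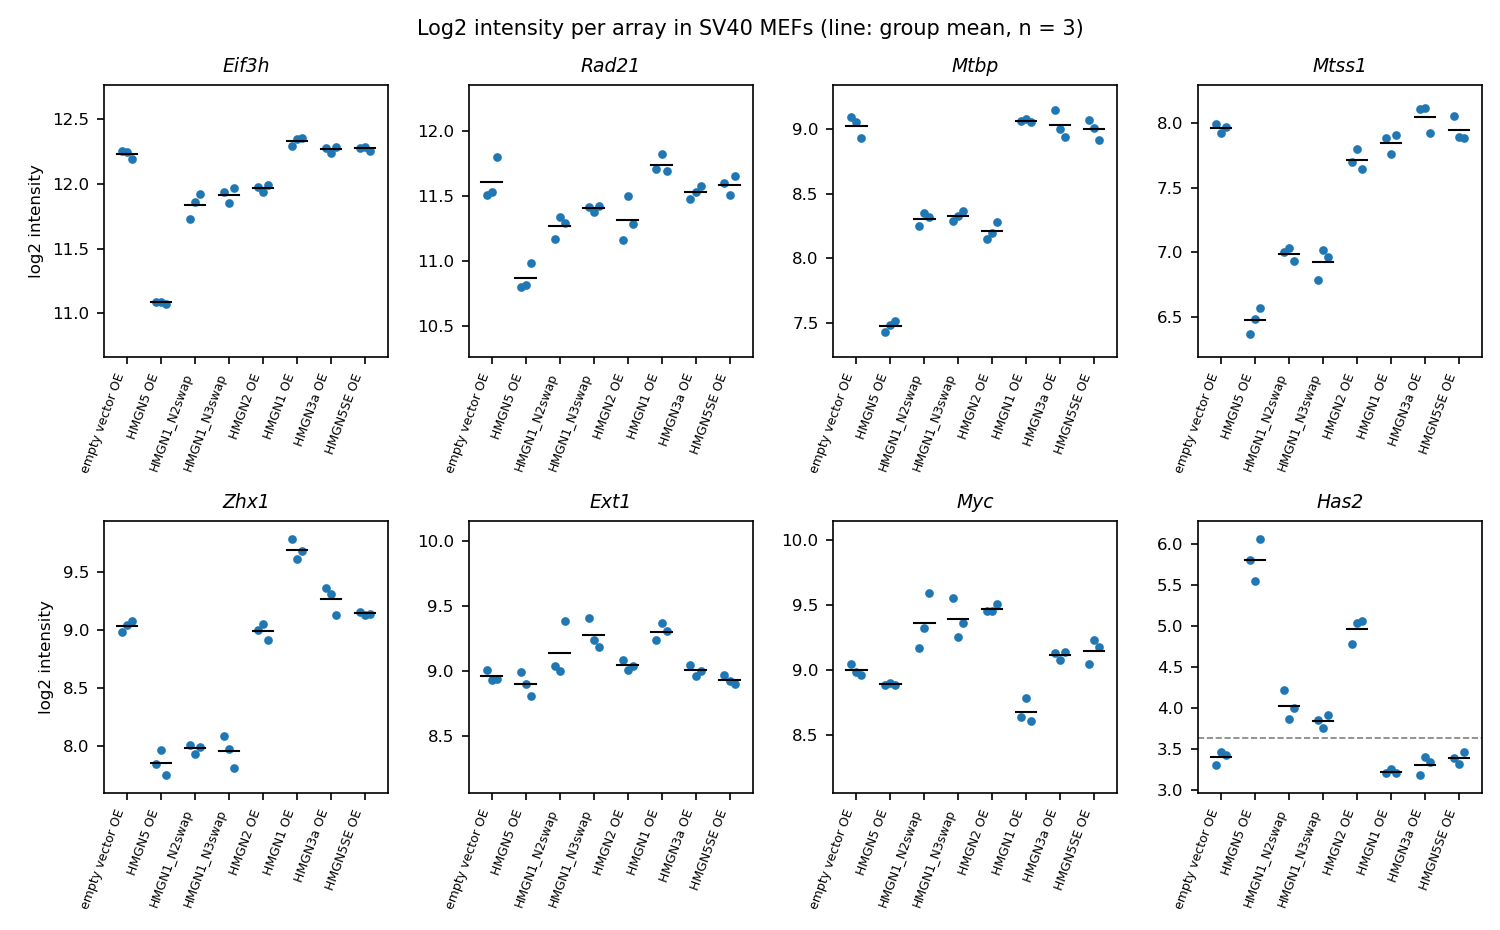
Log2 intensity (vertical axis, its range set per gene) of 8 members in the 8 SV40 MEF groups, 1 point per array and a line at each group mean, n = 3; the dashed line in the Has2 panel is the filter level of log2 3.63. Eif3h, Rad21, Mtbp and Mtss1 are lowest in HMGN5 OE, Zhx1 is about equally low in HMGN5 OE and the swap pools, Ext1 and Myc show no such drop, and Has2 is highest in HMGN5 OE and HMGN2 OE.

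The 4 members of translation and RNA processing were all below vector in HMGN5 OE (median -1.01), where 28.9% of all genes were. Eif3h, a subunit of initiation factor eIF3, was the brightest of those described array by array. It read 11.09, 11.09 and 11.07 in HMGN5 OE against 12.26, 12.24 and 12.19 with vector, and the groups lay more than a log2 unit apart. The swap pools and HMGN2 OE lay in between, at -0.39, -0.31 and -0.26, each ± 0.05, with every array below vector. Mrpl13, a mitochondrial ribosomal protein, was -1.07 ± 0.06 in HMGN5 OE, Utp23, a factor of small ribosomal subunit processing, -0.94 ± 0.07 and Trmt12, an enzyme of tRNA modification, -0.42 ± 0.14. Trmt12 was dim, with a vector mean under the filter level, so its -0.42 is a difference between levels that were both under it. In HMGN1 OE (mean 4.05) it was at least 0.42 above vector. It passed the filter only through that group, so nothing is read from its being higher there.

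Signalling and protein turnover genes were below vector in 5 of 5 cases in HMGN5 OE (median -1.03), where 28.9% of all genes were. Several of these 5 took another order among the other pools. Derl1, a channel component of protein export from the endoplasmic reticulum, was -1.16 ± 0.07, and Rnf139, a ubiquitin ligase of that membrane, -1.03 ± 0.06. Fbxo32, the muscle ubiquitin ligase subunit atrogin-1, read 5.51, 5.49 and 5.59 in HMGN5 OE, 5.97, 5.80 and 5.12 with HMGN1_N2swap and 6.66, 6.53 and 6.64 with vector. HMGN1 OE had it at 7.70, 7.35 and 7.44, so its differences ran from -1.08 in HMGN5 OE to 0.89 in HMGN1 OE, each ± 0.17.

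Deptor, an inhibitor of mTOR, was lower in HMGN2 OE (4.32, 3.90 and 4.23) than in HMGN5 OE (4.73, 4.60 and 4.72), with vector at 5.41, 5.31 and 5.37. The differences from vector were -1.21 and -0.68, each ± 0.13, and the contrast of these 2 pools was not tested. In HMGN5 OE this depends on the probe set, since Deptor's 4 ran from -0.68 to -0.04, with 3 of them below vector without overlap. Trib1, a pseudokinase that guides a ubiquitin ligase to its substrates, read 5.66, 5.68 and 5.60 in HMGN1 OE and 5.69, 5.92 and 5.72 in HMGN5 OE, against 6.78, 6.50 and 6.61 with vector. It was therefore low in HMGN1 OE (-0.98 ± 0.11), where most members were not, and overlapped vector in both swap pools. Zhx2 was likewise below vector in HMGN1 OE (-0.60 ± 0.10).

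Members of membranes, mitochondria and the cytoskeleton were below vector in 5 of 7 cases in HMGN5 OE (median -0.85), where 28.9% of all genes were. Mtss1, which bends membranes and binds actin, was the lowest but 2, reading 6.37, 6.49 and 6.57 against 7.99, 7.92 and 7.97, and its 6 probe sets all lay lower, from -1.48 to -0.60. Tatdn1, of a nuclease family, was -1.50 ± 0.07, Ndufb9, a subunit of respiratory complex I, -0.99 ± 0.06 and Tmem65, a mitochondrial inner membrane protein, -0.85 ± 0.06. Asap1, a GTPase-activating protein for Arf, and Efr3a, an anchor of a lipid kinase at the plasma membrane, lie near the far end of the stretch and were -0.21 ± 0.07 and 0.07 ± 0.06. For Asap1 this depends on the probe set, since the other 2 gave -0.64 and -0.63.

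The secreted and glycan genes went their own way. Has2, the main hyaluronan synthase of fibroblasts, read 5.81, 5.55 and 6.06 in HMGN5 OE, 4.78, 5.04 and 5.07 with HMGN2 OE and 3.31, 3.46 and 3.43 with vector. Both pools were above all other SV40 arrays. Since the vector mean lay under the filter level, Has2 was at least 2.17 higher in HMGN5 OE and at least 1.33 higher in HMGN2 OE on the log2 scale, with at least 0.40 for HMGN1_N2swap and 0.21 for HMGN1_N3swap, and its other probe set gave 2.66 in HMGN5 OE. Ext1, a polymerase of heparan sulfate, read 8.99, 8.89 and 8.81 in HMGN5 OE and 9.01, 8.93 and 8.93 with vector, which overlap (-0.06 ± 0.08). It was above vector in HMGN1_N3swap (0.32 ± 0.08) and HMGN1 OE (0.34 ± 0.08).

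**Figure D4:**
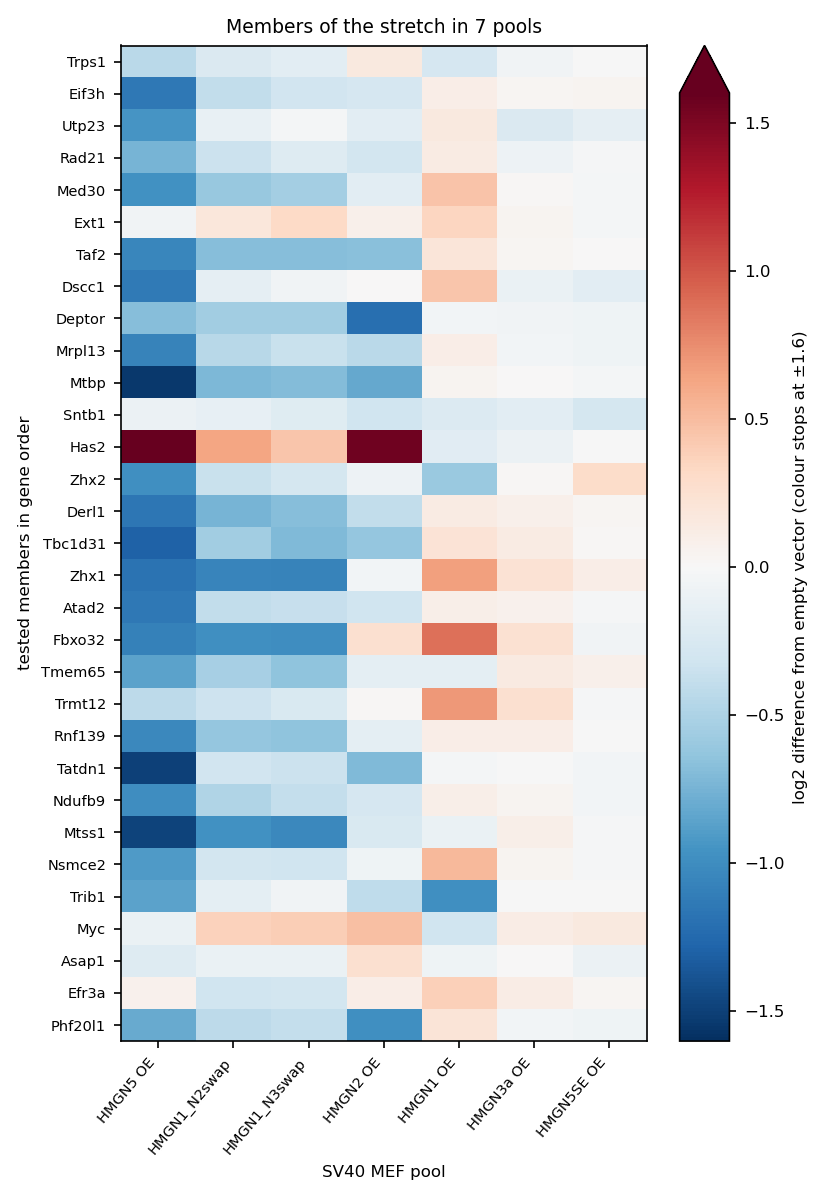
Log2 difference from empty vector (colour, blue lower and red higher, stopping at 1.6 on either side) of the 31 tested members in gene order (rows) in 7 SV40 MEF pools (columns), group means of n = 3. The HMGN5 OE column is blue except at Has2, Ext1, Sntb1, Myc, Asap1 and Efr3a, the swap columns are alike and paler, HMGN1 OE is mostly pale red, and HMGN3a OE and HMGN5SE OE are nearly white.

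The swap pools gave similar pictures of the stretch. With HMGN1_N2swap the median was -0.39 (76.1% of vector), with 23 members below and 2 above all vector arrays, against 21.9% and 21% of all genes. With HMGN1_N3swap it was -0.35 (78.5%), with 22 below and 3 above, against 23.7% and 22.3%. Zhx1, Fbxo32 (-0.98 and -0.99, each ± 0.17) and Mtss1 (-0.97 and -1.04, each ± 0.07) were the 3 lowest members in both. Derl1 (-0.74 and -0.68, each ± 0.07), Mtbp, Taf2 (-0.68 in both) and, with HMGN1_N3swap, Tbc1d31 (-0.70 ± 0.06) came next. All 7 pools are set against the same 3 vector arrays, so a departure of those arrays would show in every pool at once.

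In HMGN2 OE the stretch was mixed. The median was -0.17 against -0.06 for all genes, with 19 members below and 5 above vector, where 33.1% and 23.3% of all genes were. Phf20l1 (-0.98 ± 0.07), Mtbp, Tatdn1 (-0.71 ± 0.07) and Taf2 (-0.66 ± 0.07) lay low with Deptor, while Zhx1, Dscc1 and Zhx2 overlapped vector, and Asap1 and Fbxo32 were both at 0.26 (± 0.07 and ± 0.17). Sqle, outside the member list, was 0.80 ± 0.07. In HMGN1 OE the median was 0.10, with 17 members above and 7 below, against 27.8% and 21.6% of all genes. The 17 include Trmt12, which passed the filter only through this pool. For 11 members the HMGN1 OE arrays were the 3 highest of 24, as for 5.75% of genes.

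HMGN3a OE and HMGN5SE OE left the stretch near the vector level. Their medians were 0.03 and -0.02, and the members ranged from -0.23 to 0.26 and from -0.28 to 0.30. With HMGN3a OE 7 members were above and 1 below vector (all genes 13.1% and 6.85%), and with HMGN5SE OE 4 and 3 (all genes 10.2% and 5.12%). Zhx1 was slightly above vector in both (0.23 and 0.11, each ± 0.07). Groups of 2 against 3 arrays overlap less often for any gene. Without HMGN3a OE replicate 3 the count of members that did not overlap went from 8 to 13 of 31, and the share of all genes from 20% to 31.9%. For HMGN5SE OE it went from 7 to 16 without its replicate 1 and to 13 without vector replicate 3, and the share of all genes from 15.3% to 26.6% and 28.2%.

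Probe sets that were not chosen gave the same direction in HMGN5 OE. A further 48 probe sets of 21 members passed the filter, and 42 of them were below all vector arrays and 1 above, with a median of -0.72. Over all genes, each read from its chosen probe set, 28.9% were lower and 27.4% higher. Derl1's 4 probe sets ran from -1.57 to -1.16, Utp23's 4 from -1.36 to -0.82, and Rad21's 3 from -1.02 to -0.71. The range was wide for Tatdn1 (-1.59 to -0.14), Tbc1d31 (-1.65 to -0.31), Ndufb9 (-1.15 to -0.25) and Deptor (-0.68 to -0.04). Efr3a's 3 (-0.13 to 0.07) and Ext1's 2 (-0.13 to -0.06) overlapped vector throughout. With HMGN1_N2swap 35 of the 48 were below vector and 2 above, where 21.9% and 21% of all genes were. With HMGN2 OE they were mixed, 20 below and 10 above with a median of -0.08, where 33.1% and 23.3% of all genes were.

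In primary MEFs 1 member passed the test in 1 of the 3 knock outs. Of the 32 tested (Mal2 and Trmt12 did not pass), 1 fell in the HMGN1 knock out: Atad2, which read 6.28, 6.38 and 6.31 against 6.60, 7.04 and 6.90 in HMGN1 WT. The groups did not overlap, and the difference was -0.52 ± 0.10 (limma, Benjamini-Hochberg adjusted p = 0.0396 over all genes, where 0.439% of genes were called). The call was lost when any 1 of the 6 arrays other than HMGN1 WT replicate 1 was left out, with the replicate block and with the compared groups alone. The summed macrophage markers (9 of 10 passed, Lyz2 the brightest in primary MEFs) were 8.424 to 8.904 in the knock out and 8.907 to 8.997 in its WT group, and their part in this difference was not tested.

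No member was called in the HMGN3 knock out (0.585% of all genes) or in the arrays labelled HMGN5 knock out (0.0731%). At an unadjusted p below 0.05, limma gave 7, 5 and 4 of the 32 members in the HMGN1, HMGN3 and HMGN5 comparisons, where 15.5%, 8.47% and 5.59% of all genes passed. Tnfrsf11b, the decoy receptor that blocks osteoclast formation, was 0.37 ± 0.11 in the HMGN3 knock out (adjusted p = 0.256) and -0.41 ± 0.11 in the HMGN5 arrays (adjusted p = 0.369), without overlap in either but not called by limma. Colec10, dim throughout, was 0.01 to 0.17, each ± 0.16. Has2, near the filter level in SV40 MEFs with vector, stood well above that of primary MEFs, with group means of 7.07 to 7.41 against a level of log2 1.99. Myc was -0.08, -0.08 and 0.08, each ± 0.06, in the 3 knock outs.

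In MIN6 cells 29 members passed (Tnfrsf11b, Colec10, Mal2, Sntb1 and Has2 did not), and Myc moved in opposite directions with the 2 constructs. It read 5.86, 5.83 and 5.81 with vector, 5.45, 5.59 and 5.52 with HMGN1 OE and 6.12, 6.17 and 6.07 with HMGN3a OE, so the 3 groups did not overlap. It rose with HMGN3a OE (0.29 ± 0.06, limma adjusted p = 0.00295). With HMGN1 OE it fell (-0.32 ± 0.06, limma adjusted p = 0.0309), the only member called there (1.15% of all genes), but this call was lost when any 1 of the 6 arrays was left out. Myc lay within a log2 unit of the filter level of 5.13 in these cells.

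With HMGN3a OE in MIN6 cells the share of members called was near that of all genes. By limma 9 of 29 were called, 5 higher and 4 lower, where 34.1% of all genes were called, 14.5% higher and 19.5% lower. Dscc1 (0.60 ± 0.12), Trps1 (0.36 ± 0.09), Zhx2 (0.26 ± 0.08) and Atad2 (0.21 ± 0.05) rose beside Myc. Derl1 read 10.81, 10.83 and 10.99 against 11.31, 11.45 and 11.21 with vector and fell (-0.44 ± 0.09, limma adjusted p = 0.00298), as did Ext1 (-0.30 ± 0.09), Efr3a (-0.23 ± 0.08) and Tatdn1 (-0.22 ± 0.07). When the arrays were quantile-normalized again, 8 were higher and 2 lower, against 18.7% and 17.5% of all genes, whose median moved from 0.01 to 0.03. The member medians were 0.03 with HMGN3a OE and -0.02 with HMGN1 OE, so no run of low genes like that of the SV40 pool labelled HMGN5 OE appeared.

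**Figure D5:**
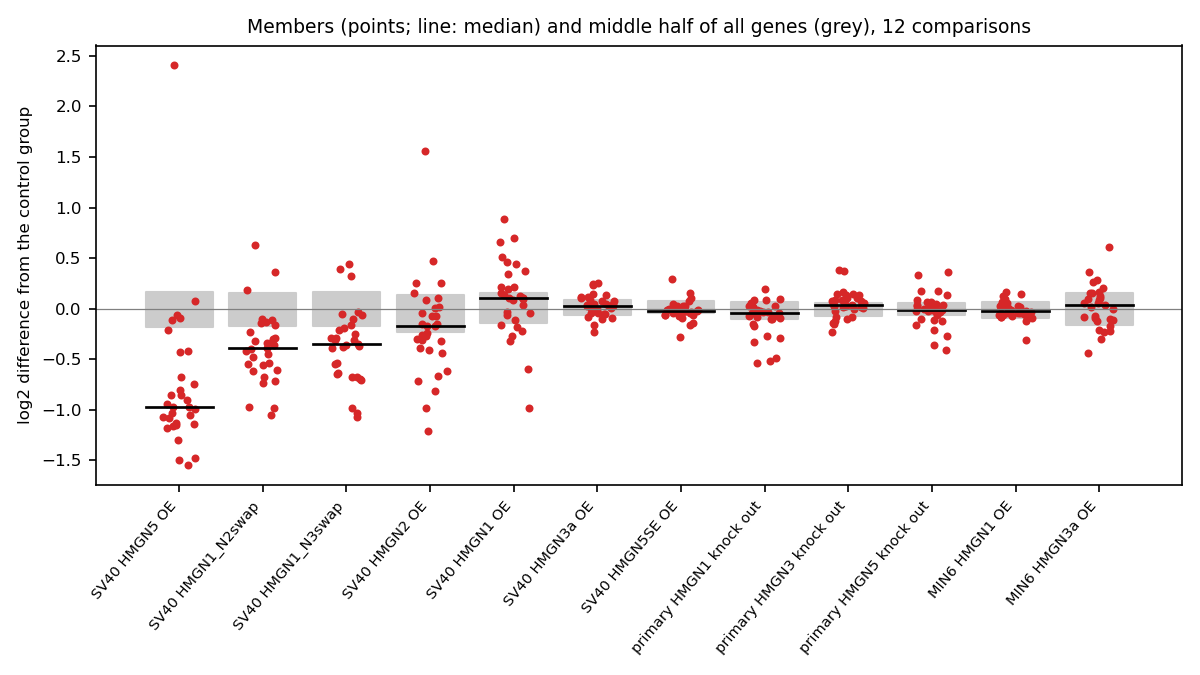
Log2 difference from the control group (vertical axis) of each tested member (red points, spread sideways for view) in the 12 comparisons, with the member median as a line and the quartile range of all genes as a grey box; group means of n = 3. The median lies at -0.97 in HMGN5 OE, far below the box, at -0.39 and -0.35 in the swap pools and within the box in the primary MEF and MIN6 comparisons.

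Partners of the members outside the stretch did not share its level in HMGN5 OE. These lists were chosen with earlier results known. Of 14 other cohesin genes, 4 rose and 0 fell by limma (all genes 20.7% and 20.8%): Stag1 (0.74 ± 0.07), Esco1 (0.64 ± 0.10), Pds5b (0.61 ± 0.07) and Smc3 (0.15 ± 0.05), while the loader Nipbl was -0.30 ± 0.20 (limma adjusted p = 0.257) and the ring subunit Smc1a 0.04 ± 0.06 (adjusted p = 0.681). With quantile normalization again the count was 3 higher and 1 lower (all genes 20% and 22.1%). Of 10 other eIF3 subunits, 1 rose (Eif3d, 0.79 ± 0.07) and 3 fell. Those that fell were Eif3c (-0.56 ± 0.07), Eif3e (-0.32 ± 0.06) and Eif3k (-0.22 ± 0.07), and Eif3b was -0.02 ± 0.07 (limma adjusted p = 0.868). Eif3e lies on chromosome 15, 8 tested genes before Trps1, on the side of the stretch where genes were low too.

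In HMGN5 OE 20.7% of all genes rose and 20.8% fell by limma. Of 31 other Mediator genes, 7 rose, led by the kinase Cdk19 (1.10 ± 0.11) and Med23 (0.47 ± 0.07), and 8 fell. Med13 (-0.43 ± 0.08) and Med12 (-0.41 ± 0.07) were among those that fell, and Med28 was at 0.02 ± 0.06 (limma adjusted p = 0.807). Of 15 other TFIID genes, 1 rose (Taf9b, 0.81 ± 0.13) and 5 fell, with Taf3 (-0.78 ± 0.10), Taf10 (-0.60 ± 0.06) and Taf4 (-0.38 ± 0.10) the lowest and Tbp at -0.02 ± 0.08 (adjusted p = 0.896). Of 13 genes for hyaluronan and heparan sulfate, 2 rose (Hs2st1, a sulfotransferase, 0.41 ± 0.05; Cd44, the hyaluronan receptor, 0.25 ± 0.06) and 3 fell (Extl2, -0.36 ± 0.08; Extl1, -0.31 ± 0.11; and, named after its value was seen, Ext2, the partner of Ext1, -0.24 ± 0.06). Xylt2 was -0.06 ± 0.10 (adjusted p = 0.671).

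Genes around Myc were read in the same way, beside 20.7% of all genes higher and 20.8% lower in HMGN5 OE. Of 12 members of its network, 4 rose and 1 fell in HMGN5 OE: Mycl (0.43 ± 0.13), Mlx (0.40 ± 0.06), Mxd3 (0.39 ± 0.10) and Mxd4 (0.34 ± 0.10), and Mycn (-0.89 ± 0.07), with Zbtb17 at 0.07 ± 0.06 (adjusted p = 0.427). Max, the partner of Myc, fell in both swap pools (-1.20 and -0.99, each ± 0.14) and with HMGN2 OE (-0.43 ± 0.14). Mycn also fell with HMGN5SE OE (-1.58 ± 0.07, limma adjusted p = 6.67e-13) and HMGN3a OE (-0.50 ± 0.07, limma adjusted p = 0.00161), the only network gene called in either, and rose in the swap pools (0.47 and 0.44) and with HMGN1 OE (0.49), each ± 0.07. Of 35 genes listed as Myc targets, 4 rose and 12 fell in HMGN5 OE, with a median of -0.09. The cyclin Ccnd2 (-1.73 ± 0.06), Shmt1 of one-carbon metabolism (-0.83 ± 0.07), Odc1 of polyamine synthesis (-0.66 ± 0.07) and Nop16 of ribosome assembly (-0.50 ± 0.11) were the lowest, and Fbl was -0.01 ± 0.07 (adjusted p = 0.935).

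Across pools the target counts were 12 higher and 3 lower with HMGN1_N2swap (all genes 17.7% and 19.3%) and 15 and 2 with HMGN1_N3swap (17.4% and 20%), the pools with Myc above vector. They were 2 and 12 with HMGN1 OE (17.4% and 12.1%), where Myc was below vector. In HMGN2 OE, with the highest Myc, they were 4 and 17 (18.7% and 25.6%), with Ccnd2 (-0.90 ± 0.06) and Nop56 (-0.71 ± 0.08) lower and Tfrc, the transferrin receptor, higher (0.90 ± 0.07). With HMGN3a OE and HMGN5SE OE 0 of 35 targets were called by limma (0.0297% and 0.0148% of all genes).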

How the data were processed

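Each sample's biotin-labelled cRNA went onto an array of its own (labels' protocols). The authors deposited 1 linear intensity per probe set. The submitters' processing notes name RMA, and its version and settings are not given in the sources used here. Log2 of the deposited intensity was analysed, with no further normalization. RMA puts arrays on a common distribution, so a change shared by most genes would not show.

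The array holds 45101 probe sets: 34945 with a single gene symbol, 932 with several, 9160 unnamed and 64 controls. Gene levels were read only from those with a single symbol. Names and gene order came from the table of RefSeq genes (assembly GRCm38.p6), used for names and neighbours only. A probe set was kept if its highest group mean reached the 40th percentile of group means within its cell type (the filter level), and a gene was read from its brightest kept probe set. That left 13469 genes for SV40 MEFs, 13674 for primary MEFs and 13179 for MIN6.

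Tests used limma 3.58.1 under R 4.3.3, with a separate model per cell type, group means and no covariates. P-values are two-sided and adjusted by Benjamini-Hochberg over all genes, with calls below 0.05. The fit was tested on simulated data. Counts of arrays without overlap carry no p. Differences are given with their standard error (SE), n = 3 arrays, whose number limits the precision.

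All 36 members were named, with the other tested genes of the stretch, 5 neighbours per side and up to 4 genes of each partner list with 1 below its median change. The members and lists were chosen with earlier results of these data known. Same-numbered arrays deviated together no more than others in primary MEFs (median r of -0.02 against 0.0085) and SV40 MEFs (-0.0009 against 0.0032). In MIN6 cells the median r was higher for same-numbered arrays (0.09 against -0.0046), whose 9 pairs ran from -0.32 to 0.32. Replicate numbers were not used as pairs in the main fit. Alternatives were no filter, the mean over probe sets, quantile normalization again, a replicate block, the compared groups alone and leaving out each array. Reading the partner lists after quantile normalization was added after seeing the data. Figures were drawn with matplotlib 3.10.9.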

Additional observations from a re-analysis of the deposited data

Results flagged for a closer look

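HMGN1 OE was read in both lines, and the array scores of the stretch had opposite signs in them. The mean score was 0.116 in SV40 MEFs, with all 3 arrays above every vector array. In MIN6 cells it was -0.026, with all 3 arrays below 0, but 2 of them (-0.0096 and -0.0102) lay above the lowest vector array (-0.0104), so the groups overlapped. The member median there, -0.023, was close to the -0.014 over all genes. The difference between the lines was not tested.

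Eif3h was 0.103 above vector in SV40 MEFs and -0.078 from vector in MIN6 cells with HMGN1 OE, each without overlap of arrays. This difference was not tested either.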

How the results depend on the processing

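No result changed sign with a called value. The HMGN5 OE median was -0.92 without the filter on dim probe sets and -0.88 with the mean over probe sets. HMGN1_N2swap gave -0.35 without the filter, -0.43 with the mean over probe sets and -0.35 with quantile normalization again, and HMGN1_N3swap -0.31 without the filter. HMGN2 OE gave -0.16 with the mean over probe sets and -0.20 with quantile normalization. The median of the HMGN1 knock out was -0.018 with quantile normalization, and that of HMGN3a OE in MIN6 cells 0.013 with the mean over probe sets and 0.076 with quantile normalization. With the replicate block, 0 members were called in the HMGN1 knock out and 0 with HMGN1 OE in MIN6 cells, where Myc was -0.32 with an adjusted p of 0.0531. With the compared groups alone both counts were 0, and Myc was -0.32 (adjusted p = 0.0574). The mean over probe sets also gave 0 for the HMGN1 knock out. With HMGN3a OE in MIN6 cells the replicate block gave 8 calls (5 higher, 3 lower) where 9 were made without it, and it left the counts of the other knock outs at 0. Same-numbered arrays share only a number. The cause of these shifts was not tested.

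Leaving out 1 array at a time, the medians ranged from -0.967 to -0.925 in HMGN5 OE, -0.434 to -0.340 in HMGN1_N2swap, -0.359 to -0.315 in HMGN1_N3swap, -0.207 to -0.174 in HMGN2 OE, -0.029 to -0.011 in HMGN5SE OE, -0.074 to -0.036 in the HMGN1 knock out, -0.017 to 0.031 in the HMGN5 arrays and 0.014 to 0.041 with HMGN3a OE in MIN6 cells. Members without overlap numbered 9 to 13 with HMGN3a OE and 8 to 16 with HMGN5SE OE. Calls ranged from 0 to 1 in the HMGN1 knock out, with the call lost when any 1 knock out array or HMGN1 WT replicate 2 or 3 was left out, and were 0 throughout with HMGN1 OE in MIN6 cells, where Myc ranged from -0.35 to -0.28.

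Has2, Trmt12 and Sntb1 in SV40 MEFs and Myc in MIN6 cells lie near the filter level, where differences can be compressed.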
